A study of Homo sapiens with 3 samples.

Results

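The IKK kinases and the NF-kappaB factors were followed in a series that sequenced poly(A) RNA after loss of the miRNA-processing enzymes DICER1 and DROSHA. The set was a list of 10 gene symbols, CHUK, IKBKB, IKBKG, TBK1, NFKBIA, NFKBIB, NFKB1, NFKB2, RELA and RELB, and 9 of them were among the 12040 genes of the authors' table. RELB was not listed there, so no value is given for it. The list was chosen by symbol, with earlier results of these data in view, and the fold change of CHUK, already known to be among the lowest, was one of the values that chose it. The values of the members are therefore a description.

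The cells were HEK293, an established line from human embryonic kidney, in a T-Rex Flp-In derivative that carries FLAG:DICER1 in all 3 groups. T-Rex cells hold a tetracycline-regulated system, and the sources used here do not say if the transgene was induced. One library came from a mock transfection, one from a knockdown of DICER1 and one from a knockdown of DROSHA, all by RNAi transfection and all carrying 2.5d in their titles. Each group had a single library. The spread between replicates is therefore unknown, and nothing was tested.

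The table has no column names. Its 2 columns of log2 fold changes share a denominator and are called the first and the second comparison as they come, and neither is tied to a knockdown. The first minus the second fold change, called the difference, sets the numerators of both against each other. The words rose and fell are kept for a log2 fold change of at least 1 in size, which is 2-fold. The authors added 1 to each level before taking ratios, which pulls the values of weakly expressed genes towards 0. The level in each library is not reported here, because no column could be matched to a sample, and the depth is unknown. Of the targeted genes, DICER1 stood at -1.32 and 0.58 in the first and second comparison of the authors' deposited table, and DROSHA at -0.11 and -1.65. Of 9 genes set down as markers of HEK293, 6 were in the table, namely NEFL, INA, VIM, CDH2, KRT8 and KRT18. PAX2, LHX1 and NEFM were not in the table. Of 11 markers of blood, liver, connective tissue and skin cells, only CD68 was.

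NF-kappaB factors are dimers of REL proteins that are held in the cytoplasm by IkB inhibitors. In the canonical pathway a kinase complex of IKBKB, CHUK and the scaffold IKBKG marks the IkB proteins for destruction, which frees the dimers to enter the nucleus. In the non-canonical pathway CHUK acts on the NFKB2 precursor and releases dimers with RELB. TBK1 is a related kinase best known for activating IRF3 downstream of nucleic acid sensors.

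CHUK was the member that changed most. It encodes IKK alpha, one of the catalytic subunits of the complex. The authors' deposited table gave it a log2 fold change of -1.16 in the first comparison, a ratio of 0.449 after 1 was added to each level. In the second comparison of the authors' deposited table it stood on the other side of 0, at 0.34, a ratio of 1.27. CHUK ranked 11 from the lowest of all genes in the first and 969 from the highest in the second. The difference was -1.496, a ratio of 0.355, which ranked 8 from the lowest. In bulk RNA, fewer cells that express a gene and less RNA per cell cannot be told apart.

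CHUK alone of the 9 measured members fell in the first comparison and none rose. Of all genes, 0.166% fell and 0.174% rose there. In the second comparison no member fell or rose, where 0.748% of all genes fell and 0.0831% rose. In the difference CHUK alone stood at -1 or less and no member at 1 or more, against 0.349% and 1.31% of all genes. At a log2 size of 0.58, a 1.5-fold change, CHUK again was alone in the first comparison and in the difference, and no member passed in the second. That lower threshold was passed by 2.22% of all genes in the first comparison, 9.29% in the difference and 5.21% in the second. Since CHUK was picked with its fold changes known, nothing is read from these counts. Just inside and just outside the 2-fold threshold in the first comparison of the authors' deposited table were CMPK1 at -1.0045 and INSIG1 at -0.99. The member next to CHUK in size of its first fold change was NFKBIB, at 0.34 in the authors' deposited table.

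**Figure D1:**
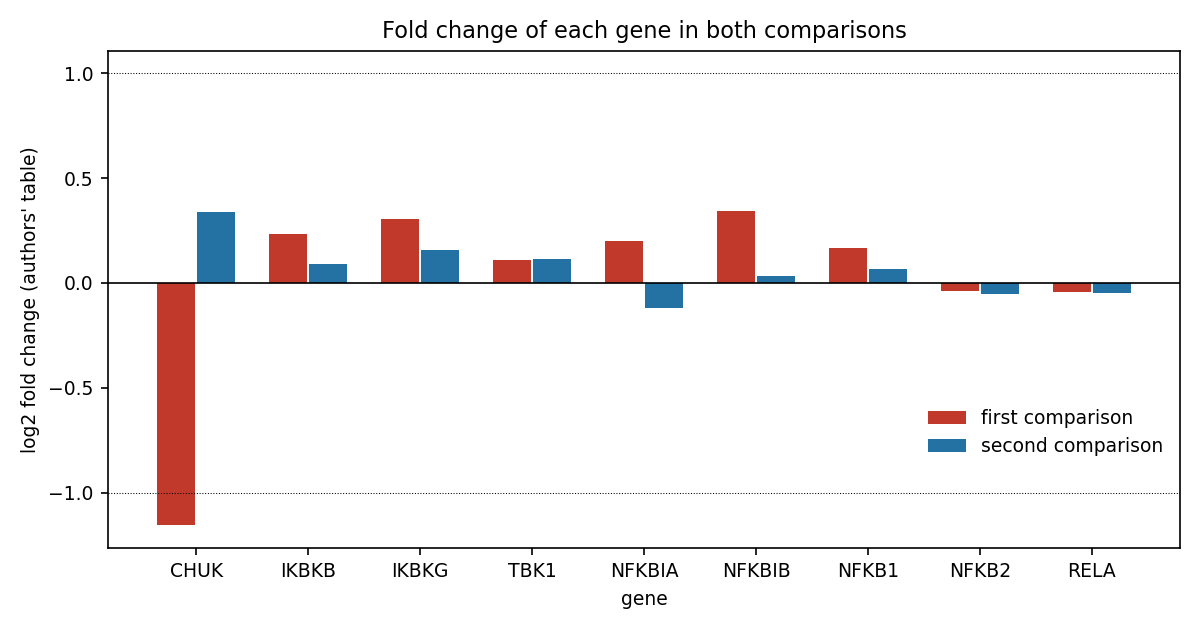
Log2 fold change in the authors' deposited table (vertical) of the 9 measured genes in the first comparison (red bars) and the second (blue bars), with dotted lines at 2-fold and 1 library on each side of a ratio. CHUK at -1.16 is the only bar past a dotted line, and its second bar, at 0.34, points the other way.

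The 3′ UTR of CHUK holds short sequences that earlier work on this table had linked to low fold changes. That work searched all 7-base words in 3′ UTRs. It picked CAATCTA and AATCTAA because their carriers were lowest in the first comparison, and GTGACTT and TGACTTA because theirs were lowest in the second. The choice used CHUK's own value, so the matches are a description and no support for any reading of them. The 3′ UTR of the principal CHUK transcript, 1300 bases long on the minus strand of chromosome 10, has both first-comparison words overlapping as the 8-mer CAATCTAA at bases 905 to 912 after the stop codon. AATCTAA occurs once more, at bases 1060 to 1066. Both sites are shown 5′ to 3′ on the transcript strand with the match in capitals, as CHUK is the only listed gene with either word. The first lies at chr10:100188675-100188704 and the second at chr10:100188521-100188549, both in GRCh38 with the transcripts of GENCODE 29.
CHUK, 8-mer site: tcatttgcttgCAATCTAAtctgaactgac
CHUK, second AATCTAA site: tacttttctaaAATCTAAaatttcataat

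Only the transcript strand was searched. Of 11140 genes of the table with a 3′ UTR of at least 50 bases, 14.3% hold CAATCTA or AATCTAA, and 1.70% hold the 8-mer. The 8-mer together with a separate AATCTAA was found in 0.539%. None of the other 9 listed genes, RELB included, carries either word in the 3′ UTR of the transcript searched. With 1 carrier among 10 listed genes, the share is near the 14.3% above, and nothing is read from it. Of the other listed genes, only IKBKB had a longer 3′ UTR than CHUK. Among the 189 genes with the 8-mer, the first log2 fold change ranged from -1.39 to 0.91 with a median of -0.16, and CHUK ranked 5 from the lowest. The median of all genes was 0.03. Since both words were picked for low carriers in this same comparison, a low median of the carriers follows from the choice. IKBKB is the one member with a second-comparison word, GTGACTT at base 206 of a 3′ UTR of 1481 bases. Its log2 fold change in the second comparison of the authors' deposited table was 0.09. The 14.1% of genes that hold GTGACTT include DICER1, and no member holds TGACTTA.

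**Figure D2:**
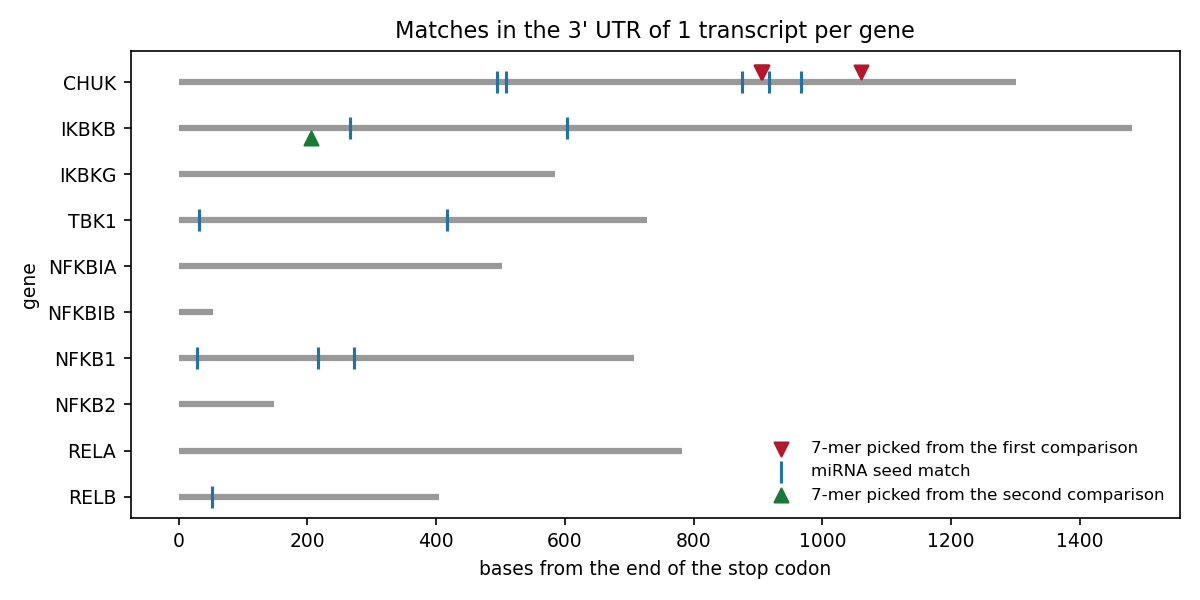
Map of the 3′ UTR of 1 transcript per gene for all 10 listed genes, with bases from the end of the stop codon on the horizontal axis. Grey bars give the length, triangles pointing down the words picked from the first comparison, triangles pointing up those picked from the second, and blue ticks seed matches of 16 miRNAs; CHUK alone has the downward triangles and IKBKB alone an upward one.

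DICER1 and DROSHA make miRNAs, which pair through the seed, bases 2 to 8, with matching sites in 3′ UTRs and lower the level of many of their targets. The seeds of 16 miRNAs chosen from textbook knowledge of HEK293 and of NF-kappaB were searched in the same transcripts. The CHUK 3′ UTR matched 5 of them, more than any other listed gene. At 1300 bases it was the longest searched among the listed genes after that of IKBKB, at 1481 bases. A longer 3′ UTR has more places for a match, and the miRNAs were chosen partly with NF-kappaB in view. The counts are therefore a description and do not set CHUK apart. NFKB1 matched 3, IKBKB and TBK1 matched 2 each, and RELB matched 1. IKBKG, NFKBIA, NFKBIB, NFKB2 and RELA matched none, and the 3′ UTR searched was only 54 bases long in NFKBIB and 148 in NFKB2. No miRNA was measured in these libraries, so the matches only show where pairing is possible by sequence. The mature sequences that match CHUK are given from RefSeq (GRCh38.p14), with the seed in capitals.
hsa-let-7a-5p: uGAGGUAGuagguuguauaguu
hsa-miR-16-5p: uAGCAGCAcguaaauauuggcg
hsa-miR-223-3p: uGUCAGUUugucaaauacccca
hsa-miR-301a-3p: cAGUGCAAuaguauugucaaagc
hsa-miR-21-5p: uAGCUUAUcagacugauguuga

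The sites in CHUK begin at base 495 of the 3′ UTR for let-7a, 508 for miR-301a, 875 for miR-21, 917 for miR-223 and 967 for miR-16. The miR-223 site begins 5 bases after the end of the 8-mer and closes the first window shown above. The shares of all genes with a match were 10.3% for let-7a, 15.9% for miR-301a, 9.23% for miR-21, 9.20% for miR-223 and 23.8% for miR-16. The miR-16 seed site, shared by CHUK, IKBKB and NFKB1, is shown for CHUK at chr10:100188614-100188642 (GRCh38, minus strand) with the match in capitals.
CHUK, miR-16 site: ttcctttatttTGCTGCTtgatgatgaga

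These 3 genes with a miR-16 seed match did not move alike. The authors' deposited table had them at -1.16 (CHUK), 0.23 (IKBKB) and 0.17 (NFKB1) in the first comparison. The second comparison of the authors' deposited table had the same genes at 0.34, 0.09 and 0.07.

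The partners of CHUK in the kinase complex did not pass the 2-fold threshold. IKBKB, which encodes the main kinase of the canonical pathway, stood at 0.23 and 0.09 on the log2 scale in the authors' deposited table. It was thus above 0 in both comparisons, and 85.9% of all genes had a lower value in the first. The log2 fold change of CHUK minus that of IKBKB was -1.39 in the first and 0.25 in the second. IKBKG, the scaffold NEMO that the kinases need for activation, stood at 0.31 and 0.16 in the authors' deposited table. IKBKG stood closer to IKBKB than to CHUK in both comparisons. The IKBKG row is uncertain, because the genome holds the near-identical pseudogene IKBKGP1.

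TBK1, the IKK-related kinase, was at 0.11 in both comparisons of the authors' deposited table. Its difference of -0.0016 was the smallest in size of all 9 measured members. TBK1 shares 308 exonic bases with an antisense transcript. The sources used here do not say if counting used the strand, so the reads from these shared bases may not have been told apart. CHUK shares 37 exonic bases with ERLIN1 on the same strand, and NFKBIB shares 40 with SIRT2 on the opposite strand.

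Both IkB inhibitors were above 0 in the first comparison. NFKBIA, the inhibitor IkB alpha that NF-kappaB itself induces in a feedback loop, stood at 0.20 and -0.12 in the authors' deposited table. With CHUK it was 1 of 2 members with opposite signs in the comparisons, in the reverse order. NFKBIB, IkB beta, stood at 0.34 and 0.03 in the authors' deposited table. That first value was the highest of the members, and 94.6% of all genes were lower. The difference was close for both inhibitors, 0.32 for NFKBIA and 0.31 for NFKBIB, and these were the highest of the 9.

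Of the REL factors, RELA and NFKB2 lay closest to 0 in the first comparison. RELA, the p65 subunit that carries the transactivation domain of the most common dimer, stood at -0.04 and -0.05 in the authors' deposited table. NFKB2, the precursor p100 of the p52 subunit, stood at -0.04 and -0.06 in the authors' deposited table. These were the 2 members below 0 in both comparisons, and their differences were 0.0046 and 0.019. NFKB1, the precursor p105 of the p50 subunit, stood at 0.17 and 0.07 in the authors' deposited table. It was 0.20 above NFKB2 in the first and 0.12 above it in the second.

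Without CHUK, the 8 other measured members had a median log2 fold change of 0.18 in the first comparison, within -0.04 to 0.34, and 6 of the 8 were above 0. The median of all genes was 0.03, with 56.5% above 0. In the second comparison the 8 members had a median of 0.05, within -0.12 to 0.16, against a median of 0.01 over all genes. In the difference the 8 members had a median of 0.12, against 0.02. The 9 measured members with CHUK had medians of 0.17, 0.07 and 0.10 in the first comparison, the second and the difference.

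**Figure D3:**
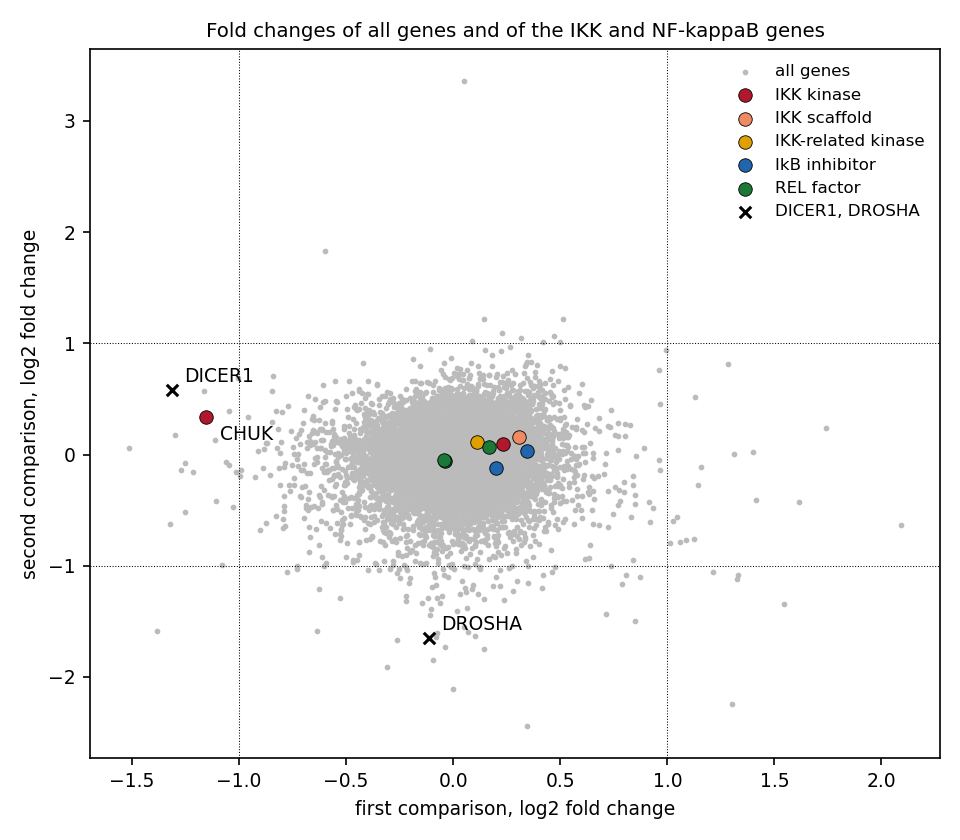
Log2 fold change of the first comparison (horizontal) against that of the second (vertical), both from the authors' deposited table and with a shared denominator; grey points are all 12040 genes, coloured points the members by role, crosses the targeted genes, and dotted lines mark 2-fold. CHUK lies at -1.16 and 0.34, near the left edge of the grey points, where it ranks 11 from the lowest of all genes. DICER1 lies at -1.32 and 0.58, and the 8 other members lie closer to the centre of the grey points.

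Several NF-kappaB genes are themselves targets of NF-kappaB, which gives the pathway its feedback. Promoters from 250 bases before to 50 after each annotated start were taken from RefSeq (GRCh38.p14), and 8 of the 10 genes had an entry. IKBKB and RELB had none. The NF-kappaB consensus, a decamer with degenerate positions, was searched on both strands, where overlapping matches arise because the motif is nearly its own reverse complement. It occurred in 5.91% of 35116 annotated starts and in 5 of the 16 starts of the members (31.3%). The matches fell in NFKB1, NFKB2, NFKBIA and NFKBIB, and none was found in the windows of CHUK, IKBKG, RELA and TBK1. The 120 bases just before a start are shown 5′ to 3′ on the gene's strand for these 4 genes, with the matches in capitals, because these are the members with a possible feedback site by sequence. They lie at chr4:102501239-102501358 (plus strand) for NFKB1, chr10:102394458-102394577 (plus) for NFKB2, chr14:35404750-35404869 (minus) for NFKBIA and chr19:38899849-38899968 (plus) for NFKBIB.
NFKB1: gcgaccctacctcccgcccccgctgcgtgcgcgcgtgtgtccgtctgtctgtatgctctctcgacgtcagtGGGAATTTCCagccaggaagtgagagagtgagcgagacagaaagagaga
NFKB2: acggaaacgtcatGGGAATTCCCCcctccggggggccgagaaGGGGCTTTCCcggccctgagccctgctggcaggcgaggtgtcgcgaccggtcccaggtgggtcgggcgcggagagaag
NFKBIA: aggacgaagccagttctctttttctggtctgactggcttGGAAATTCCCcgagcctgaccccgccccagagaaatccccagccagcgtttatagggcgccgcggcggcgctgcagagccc
NFKBIB: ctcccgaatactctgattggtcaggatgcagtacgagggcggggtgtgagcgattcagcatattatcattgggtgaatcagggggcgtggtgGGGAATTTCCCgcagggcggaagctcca

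The 4 genes with a match changed by less than 2-fold in both comparisons. Their values in the first were 0.17 for NFKB1, -0.04 for NFKB2, 0.20 for NFKBIA and 0.34 for NFKBIB in the authors' deposited table. NFKB2, with matches before 2 of its 3 starts, had the lowest of the 4. A match in these windows is no evidence of binding, and no binding was measured.

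The genes whose pattern was most like that of CHUK were found by the Euclidean distance in the 2 log2 fold changes. The nearest 5 were VMA21 at a distance of 0.122, TNKS2 at 0.1999, ZFP91 at 0.216, ERLIN2 at 0.217 and FAM18B1 at 0.229. VMA21, an assembly factor of the vacuolar ATPase, stood at -1.05 and 0.39 in the authors' deposited table. TNKS2, the poly-ADP-ribosylating enzyme tankyrase 2, stood at -0.96 and 0.33, per the authors' deposited table. The values of ZFP91, a ubiquitin ligase, in the authors' deposited table were -1.11 and 0.13. ERLIN2, a protein of the endoplasmic reticulum membrane, was at -1.30 and 0.18, and FAM18B1 at -1.16 and 0.57, in the authors' deposited table. FAM18B1 was the closest of these to CHUK in the first comparison and the furthest in the second. All 5 carry CAATCTA or AATCTAA in the 3′ UTR of the transcript searched, and VMA21 and ZFP91 carry the 8-mer. Of all genes with a 3′ UTR searched, 14.3% hold either word and 1.70% the 8-mer. The 3′ UTRs are 4306 bases long in VMA21, 2277 in TNKS2, 3336 in ZFP91, 4986 in ERLIN2 and 1147 in FAM18B1. A longer 3′ UTR has more places for a match. Both words were picked from the low end of the first comparison, and a gene near CHUK is low there by the way it was found.

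The rest of the pathway was described with 7 lists of 130 distinct genes, written from textbook knowledge, of which 100 were in the table. Of the 100, which include 3 members, none rose or fell in the first comparison, against 0.174% and 0.166% of all genes. In the second, TBKBP1 and SDC4 fell and none rose, against 0.748% and 0.0831% of all genes. In the difference, SDC4 and TBKBP1 stood at 1 or more, as did 1.31% of all genes, and NKIRAS1 at -1 or less, as did 0.349%.

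Receptors and adaptors had 19 of 30 genes in the table. Their median was 0.05 in the first and 0.08 in the second, where all genes had 0.03 and 0.01. RIPK1, the kinase recruited to the TNF receptor, was the lowest in the first at -0.44, and stood at 0.13 in the second, per the authors' deposited table. TNFRSF10B, a TRAIL receptor, was the highest in both, at 0.22 and 0.34 in the authors' deposited table. TNFRSF12A, the receptor of TWEAK, was at -0.19 in the first and lowest in the second at -0.67, per the authors' deposited table. The receptor genes CD40, TLR3, TLR4 and IL1R1 were not in the table.

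All 14 upstream kinases and their cofactors were in the table, with medians of 0.07 and 0.14. MAP3K3 was highest in both comparisons, at 0.31 and 0.46 in the authors' deposited table. ERC1, which binds the IKK complex, was lowest in the first at -0.18, and MAP3K8 lowest in the second at -0.24, per the authors' deposited table. MAP3K14, the kinase NIK that activates CHUK, stood at 0.21 and 0.25 in the authors' deposited table. It was named after its value was seen, as the kinase that acts directly on CHUK.

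The 17 ubiquitin enzymes and binding proteins were all in the table. Their medians were -0.00022 and 0.12, and none passed the 2-fold threshold. UBE2N, which builds the ubiquitin chains that activate the pathway, was the lowest in the first comparison at -0.55, in the authors' deposited table. TNIP2, which binds ubiquitin and dampens NF-kappaB, was the highest in the first at 0.55, and stood at 0.45 in the second, per the authors' deposited table. In the second comparison of the authors' deposited table RNF11 was highest at 0.69 and UBE2D3 lowest at -0.47. The ligase of phosphorylated IkB, SCF-bTrCP, had all 7 genes in the table, with medians of -0.05 and 0.04. Its substrate receptor FBXW11 was lowest in both comparisons, at -0.52 and -0.64, per the authors' deposited table. The other substrate receptor of the list, BTRC, stood at -0.05 and -0.08 in the authors' deposited table and was named after its value was seen. The highest of the list were UBE2M at -0.0052 in the first and NEDD8 at 0.27 in the second, per the authors' deposited table.

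Of 12 other REL, IkB and regulatory genes, 11 were in the table, with medians of -0.04 and -0.12. NKIRAS1, a Ras-like protein that slows the breakdown of IkB, stood at -0.19 and 0.86, per the authors' deposited table, the highest of the list in the second. Its paralogue NKIRAS2 had the reverse signs, at 0.17 and -0.22 in the authors' deposited table, and was the highest in the first. NKAP was the lowest in the first at -0.28 and PDLIM2, a ligase for nuclear RELA, the lowest in the second at -0.54, per the authors' deposited table. In the difference NFKBIE, IkB epsilon, was highest at 0.57 and NKIRAS1 lowest at -1.05.

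Partners of TBK1 had 12 of 13 genes in the table, with medians of -0.12 and 0.04. TBKBP1, an adaptor that binds TBK1, was the highest of the list in the first comparison at 0.35, and in the second just inside the threshold at -1.0006, in the authors' deposited table. TBK1 itself had nearly equal values in both. IKBKE, the closest relative of TBK1, was lowest in the first at -0.50, and stood at -0.26 in the second, per the authors' deposited table. DDX58, the RNA sensor RIG-I, was at -0.26 in the first and highest in the second at 0.38, per the authors' deposited table.

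Of 44 listed targets of NF-kappaB, 24 were in the table, and 3 of the 24 are members. The 20 not in the table included the cytokine genes IL6, IL8, TNF and CCL20. The 24 had a median of 0.17 in the first comparison, with 19 above 0 and none that rose, and 0.05 in the second, with 13 above 0. Over all genes the medians were 0.03 and 0.01, and 56.5% and 51.1% were above 0. CFLAR, an inhibitor of caspase-8, was the highest in both, at 0.45 and 0.48 in the authors' deposited table. XIAP, an inhibitor of caspases, was the lowest in the first at -0.51, and stood at 0.26 in the second, per the authors' deposited table. SDC4, the cell surface proteoglycan syndecan-4, fell in the second comparison, to a log2 value of -1.14, in the authors' deposited table. Its first value in the authors' deposited table was 0.30, and its difference of 1.43 was the highest of all 100 pathway genes.

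**Figure D4:**
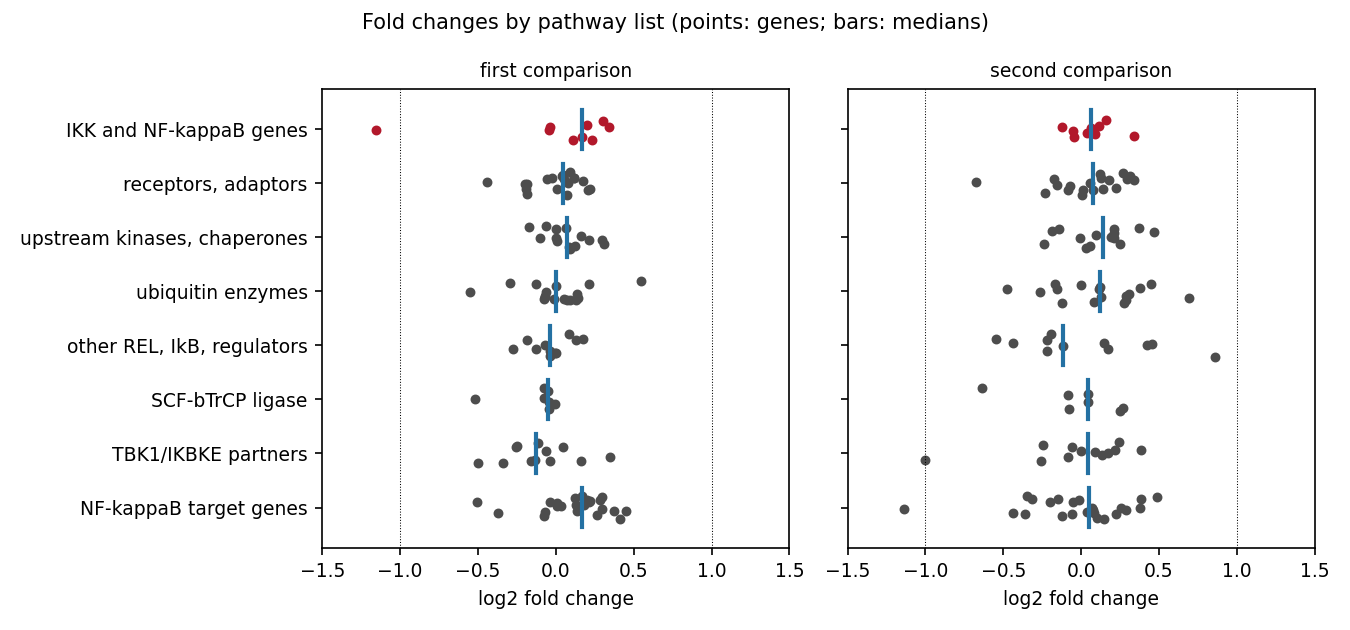
Log2 fold changes in the authors' deposited table (horizontal) of the 9 measured IKK and NF-kappaB genes (red) and of the 7 pathway lists (grey) in the first comparison (left) and the second (right), with 1 point per gene, blue bars for medians and dotted lines at 2-fold. CHUK at -1.16 is the only point past a dotted line on the left, and SDC4 at -1.14 and TBKBP1 at -1.0006 are past it on the right.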

How the data were processed

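One table without column names was deposited, with 12040 gene symbols and, in 2 columns, log2 fold changes that the authors calculated. Its 3 further columns hold values per library. None could be matched to a sample, so they were not analysed, and served only to check what the fold changes are: log2 ratios to a shared denominator with 1 added, within 5.0e-12. Tools and build in the submitters' processing notes, with no role given, are hg19, SAMtools, Cufflinks, Cuffdiff 2.1.1, CASAVA 1.8.2 and TopHat2 2.06.

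The members and the gene lists were chosen with earlier results of these data known. By the naming rule the text gives all members, genes past 2-fold and the 5 genes nearest to CHUK. It also gives the highest and lowest gene of each list in the first and the second comparison. In the difference these are not given for every list. DICER1 and DROSHA are given as the targeted genes. The counts and the distance search were tested on simulated data. Symbols were matched to GENCODE 29 directly (10581) or through RefSeq synonyms (11374 in all), with 1 transcript per gene, the APPRIS principal one first and then the longest. Python 3.11.15, pandas 2.3.3 and numpy 2.4.6 were used.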

Additional observations from a re-analysis of the deposited data

How the results depend on the processing

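A single library stands for each group, so no library was left out in turn and nothing was tested. No paired analysis was possible for the same reason. The count of members past the threshold was 1 in the first comparison, 0 in the second and 1 in the difference, also at a threshold of 0.58 and after re-centring on the median of all genes. At 0.58, 6 pathway genes in place of 2 passed in the second comparison and 8 in place of 3 in the difference, where 5.21% and 9.29% of all genes passed. None passed at either threshold in the first. Re-centring, or leaving out the members, moved none of the counts of pathway genes past 2-fold, and was not combined with the lower threshold. Of 27 values of members, 2 changed sign on re-centring, those of NFKB2 and RELA in the difference, and the largest move was 0.0304. The planned changes to the added constant and the floor on levels were not run, because they need the columns that match no sample. The spread between libraries was not measured, and no difference among the members was set against it.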
